A study of Homo sapiens with 6 samples.

Results

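The 10 genes described here are HIF1A, which low oxygen controls mainly through its protein, and genes that low oxygen is known to induce. The latter are EGLN1, EGLN3, BNIP3, NDRG1, VEGFA, ADM, ANGPTL4, CA9 and P4HA1. All 10 were taken by symbol from a table of 20036 genes, and all were found. The data are 6 RNA-seq libraries of PANC-1, a long-used line of human pancreatic cancer cells: 3 from cells given a null control virus and 3 from cells given a lentivirus that knocks down SHMT2, the mitochondrial serine hydroxymethyltransferase. Both groups were therefore exposed to a virus. The sources used here do not give the hairpin sequence, the number of hairpins, the time after infection or the oxygen tension of the culture, and they name no hypoxic treatment. Whether each replicate was its own culture is also not stated, so the p-values reflect the spread among these 6 libraries and that spread may be technical.

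In cells with enough oxygen, the prolyl hydroxylases EGLN1, EGLN2 and EGLN3 hydroxylate the alpha subunits of hypoxia-inducible factor (HIF), VHL binds the hydroxylated protein, and the proteasome destroys it. When oxygen falls, HIF-1 alpha (HIF1A) or HIF-2 alpha (EPAS1) persists, pairs with ARNT and binds short DNA motifs with the core ACGTG or GCGTG near its target genes. Because this control acts on the protein, the HIF1A transcript does not report HIF activity, and only RNA was measured here. Known targets include EGLN1 and EGLN3 themselves, which feed back on the factor, and genes for mitophagy, blood vessel growth, pH control and collagen folding. In pancreatic tumours, which are poorly perfused, the response is often active.

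Library totals ran from 15405884 to 19075734 counts. Levels are given as CPM, counts divided by the library total, scaled by its TMM factor, and times 1e6, and comparisons between genes use the deposited FPKM, which divides by gene length. SHMT2 stood at 133, 153 and 153 CPM in control replicates 1, 2 and 3 and at 6.91, 3.42 and 5.23 CPM in knockdown replicates 1, 2 and 3, so every library matched its label (log2 fold change -4.80, SE 0.23). The 5 epithelial markers of PANC-1 differed between the groups: 2 rose (KRT8 and KRT19), 1 fell (EPCAM) and 2 had no call (KRT18 and KRT7). Control libraries averaged 947 ± 101 CPM of KRT8 and knockdown libraries 1410 ± 90.8 CPM. In the same order KRT18 averaged 421 ± 99.8 and 538 ± 163 CPM, and KRT7 at 1.09 ± 0.20 and 1.48 ± 0.58 CPM (SD, n = 3). KRT19 was nearly undetected in the controls, at 3, 4 and 0 counts in replicates 1, 2 and 3, and held 1523, 900 and 1518 counts in knockdown replicates 1, 2 and 3. It had enough counts to be tested only through the knockdown libraries. EPCAM stood at 18.1 ± 0.53 and 6.95 ± 0.86 CPM (SD, n = 3). The part of this difference in the results on the 10 genes was not tested. No marker of immune, endothelial, stromal, acinar or endocrine cells exceeded 5 counts in any library (10 markers, 4 of them at 0 throughout; their sum was 0.0630 to 0.534 CPM in controls and 0.0994 to 0.672 CPM in knockdown libraries). In each group 1 library differed from the remaining pair: control replicate 1 and knockdown replicate 2. The chi-square per gene between libraries was 24.6 and 29.4 where control replicate 1 was involved and 2.04 between the other controls, and it was 70.7 and 72.3 where knockdown replicate 2 was involved and 2.40 between the other knockdown libraries. Mitochondrially encoded genes took 10.4% of the counts of knockdown replicate 2 and 4.72% in each of the other knockdown libraries.

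Promoter sequences are shown first, with the core motif of HIF marked in them. RefSeq start sites (GRCh38.p14) were matched for 8 of the 10 genes, with 2 start sites for HIF1A. In the 250 bases before each start, ACGTG or GCGTG was searched on both strands, and overlapping matches were counted separately. Of these 9 windows 7 held either motif and 5 held ACGTG, while among all 35116 RefSeq windows of this length 43.2% held either and 18.5% held ACGTG, and among the 14688 windows of genes tested here 55.3% and 22.3% did. The 5 windows with ACGTG are printed 5′ to 3′ on the strand of the gene, ending at the base before the start site, with every match in capitals (CACGT and CACGC are the motifs read on the opposite strand):
BNIP3, chr10:131981924-131982173, minus strand: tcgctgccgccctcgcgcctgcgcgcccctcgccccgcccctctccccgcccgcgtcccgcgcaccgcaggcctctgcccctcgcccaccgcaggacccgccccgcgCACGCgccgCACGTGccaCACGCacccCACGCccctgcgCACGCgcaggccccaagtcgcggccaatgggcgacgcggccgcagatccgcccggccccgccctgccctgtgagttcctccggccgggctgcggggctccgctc
CA9, chr9:35673678-35673927, plus strand: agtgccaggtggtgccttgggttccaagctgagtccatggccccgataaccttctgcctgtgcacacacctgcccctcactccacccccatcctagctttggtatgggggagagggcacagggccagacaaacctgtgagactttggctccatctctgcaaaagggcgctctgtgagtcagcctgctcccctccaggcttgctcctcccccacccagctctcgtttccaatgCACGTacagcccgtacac
P4HA1, chr10:73096867-73097116, minus strand: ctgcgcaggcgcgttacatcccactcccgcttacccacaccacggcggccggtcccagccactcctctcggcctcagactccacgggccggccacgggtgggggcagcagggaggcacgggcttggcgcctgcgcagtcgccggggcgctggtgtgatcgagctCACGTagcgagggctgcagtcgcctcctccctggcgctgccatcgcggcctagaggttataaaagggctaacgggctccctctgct
EGLN1, chr1:231422288-231422537, minus strand: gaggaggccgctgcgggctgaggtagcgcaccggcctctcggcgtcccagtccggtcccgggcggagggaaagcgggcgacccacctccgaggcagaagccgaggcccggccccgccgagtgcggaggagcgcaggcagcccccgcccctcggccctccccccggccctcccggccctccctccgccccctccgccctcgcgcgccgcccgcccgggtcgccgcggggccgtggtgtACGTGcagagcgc
ANGPTL4, chr19:8363905-8364154, plus strand: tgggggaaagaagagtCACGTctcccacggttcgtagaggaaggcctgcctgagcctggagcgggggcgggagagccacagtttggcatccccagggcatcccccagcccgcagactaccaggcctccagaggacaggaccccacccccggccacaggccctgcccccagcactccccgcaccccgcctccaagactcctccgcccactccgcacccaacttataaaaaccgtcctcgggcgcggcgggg
BNIP3 held 6 matches, between 143 and 100 bases before its start, and 2 of them are the palindrome CACGTG read on both strands. CA9 and EGLN1 held their single match within 18 and 13 bases of the start, P4HA1 at 86 and ANGPTL4 at 234. All positions are from RefSeq starts, which for some genes differ from the gene spans given below. The whole windows of ANGPTL4, EGLN3 and the downstream start of HIF1A lie inside those spans. So do the P4HA1 match and part of the BNIP3 window. ADM and the upstream start of HIF1A held 1 GCGTG each, and the EGLN3 window and the second HIF1A window held neither. A match is a description of the letters, not evidence that a factor binds there, and an absent match says only that the letters are not in this window.

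Compared with the control libraries, the knockdown libraries had higher transcript levels of HIF1A, BNIP3, EGLN1, P4HA1, ADM, VEGFA and CA9 and lower levels of ANGPTL4 and NDRG1. HIF1A was 4.11-fold higher, and ANGPTL4 fell 2.41-fold. The order of the sizes is not fixed: CA9 (1.99) lay beside HIF1A (2.04) on the log2 scale and above it with the gene length trend removed (2.26 against 2.06), and there NDRG1 (-1.19) fell further than ANGPTL4 (-1.11). Of the 9 genes with enough counts to test, 7 rose and 2 fell at an adjusted p below 0.05 (edgeR quasi-likelihood test, Benjamini-Hochberg adjustment over 12292 genes). Of all tested genes 51.8% were called, 26.7% higher and 25.1% lower, so a call on its own is common here. The groups did not overlap in any of the 9, as in 61.4% of tested genes. Their median log2 fold change was 0.67, against 0.00 over all tested genes. At least 2-fold changes were called in 3 of them upward (HIF1A, BNIP3 and CA9; 9.81% of all tested genes) and 1 downward (ANGPTL4; 5.78%). EGLN3 had too few counts to be tested, and CA9 passed the filter on low counts only through the knockdown libraries, so the 9 do not stand for all 10.

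**Figure D1:**
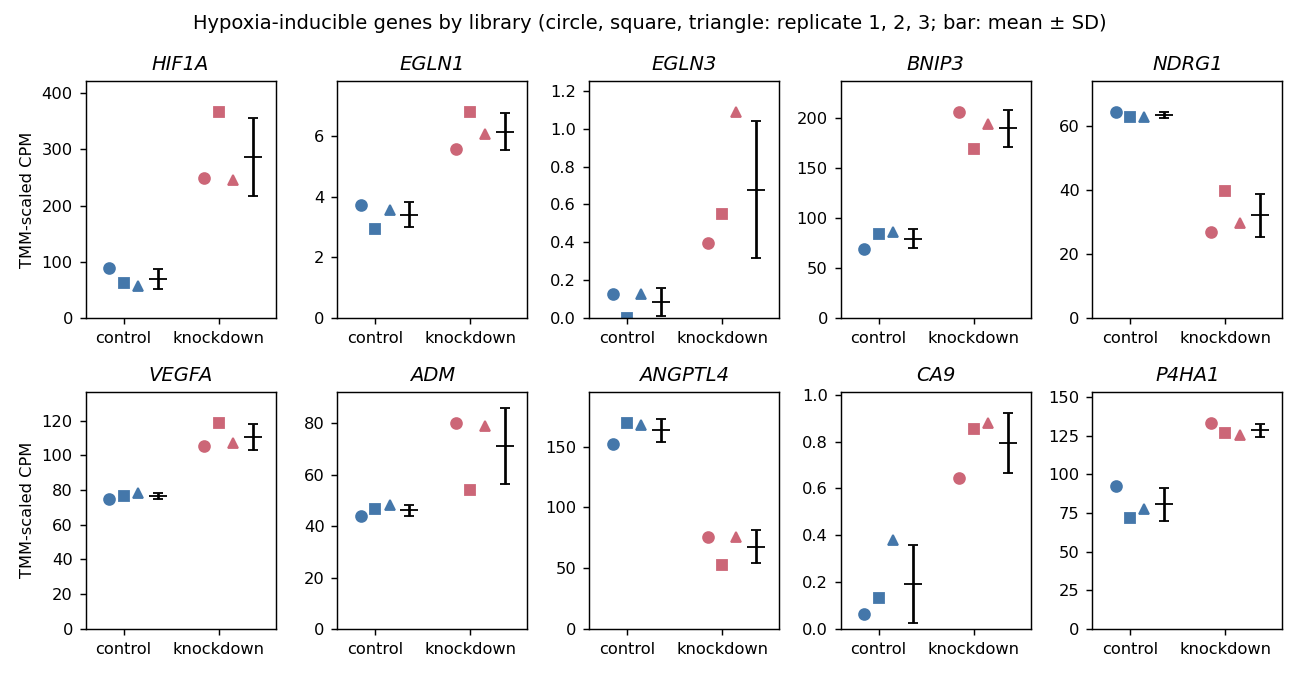
Level of each gene described here in each library, as TMM-scaled CPM on linear axes that start at 0. Points are single libraries (circle, square and triangle for replicates 1, 2 and 3), and the bars beside them give the mean ± SD of 3 libraries. Control and knockdown libraries do not overlap in any panel, and ANGPTL4 and NDRG1 are the panels where the knockdown libraries lie lower.

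HIF1A (ENSG00000100644, chromosome 14, 61695513 to 61748259, plus strand) encodes the oxygen-regulated alpha subunit of HIF-1. It stood at 89.8, 61.9 and 57.5 CPM in control replicates 1, 2 and 3 and at 249, 366 and 245 CPM in knockdown replicates 1, 2 and 3. The lowest knockdown library lay above the highest control library by more than the range within the controls, and the highest library of each group was the one that stood apart from its group. The means were 69.7 ± 17.5 and 287 ± 69.0 CPM (SD, n = 3 per group), which is 2.04 on the log2 scale (SE 0.22, adjusted p = 0.000314 in edgeR). Without both of those libraries the log2 fold change was 2.05. In bulk RNA, more transcript per cell and more cells carrying it cannot be told apart, here or for the other genes. The sense-strand gene AL137129.1 shares 2.87% and the antisense HIF1A-AS1 shares 2.27% of the exon bases of HIF1A in GENCODE 29, and neither is a row of the table.

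The 3 tested genes above 5 CPM whose levels over the 6 libraries lay closest to those of HIF1A were ZNF280C, CEP290 and ABCA1. Likeness was the distance between log2 CPM values centred on each gene's mean, and it came to 0.193, 0.238 and 0.241 among 10012 genes. With 6 libraries in 2 groups, many genes can lie this close, and no test was made.

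EGLN1 (ENSG00000135766, chromosome 1, 231363751 to 231422287, minus strand), the main HIF prolyl hydroxylase, stood at 3.71, 2.94 and 3.54 CPM in control replicates 1, 2 and 3. In knockdown replicates 1, 2 and 3 it stood at 5.57, 6.78 and 6.06 CPM. Every knockdown library was above every control, with a log2 fold change of 0.85 (SE 0.17, adjusted p = 0.0042 in edgeR).

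EGLN3 (ENSG00000129521, chromosome 14, 33924227 to 34462774, minus strand), the hydroxylase most strongly induced by hypoxia in many cells, was close to undetected in the controls. Its counts were 2, 0 and 2 in the controls and 8, 9 and 21 in the knockdown libraries, each in the order of replicates 1, 2 and 3. The summed rates differed 7.94-fold (4 against 38 counts, 95% exact interval 2.86 to 30.6, which covers counting error only). When genes with low counts were not filtered out, edgeR gave it a log2 fold change of 2.88 (SE 0.77, adjusted p = 0.0139). Knockdown replicate 3 held more counts of EGLN3 than both other knockdown libraries together.

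BNIP3 (ENSG00000176171, chromosome 10, 131967684 to 131981967, minus strand), a mitochondrial outer membrane protein that recruits the autophagy machinery to mitochondria, stood at 68.8, 84.2 and 86.3 CPM in control replicates 1, 2 and 3. It stood at 207, 170 and 194 CPM in knockdown replicates 1, 2 and 3, all of them well above the controls. In edgeR this was a log2 fold change of 1.25 (SE 0.12, adjusted p = 0.000185). Among the windows searched, that of BNIP3, printed above, held the most HIF motif matches and also the highest share of G and C bases (81.6%). The paralog BNIP3L, a second mitophagy receptor, was not called (log2 fold change 0.08, SE 0.10, adjusted p = 0.52 in edgeR), but it was called without control replicate 1 and knockdown replicate 2 (0.20).

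NDRG1 (ENSG00000104419, chromosome 8, 133237175 to 133302022, minus strand), a cytoplasmic stress protein induced by hypoxia and linked to differentiation, went the other way. It stood at 64.5, 62.9 and 62.9 CPM in control replicates 1, 2 and 3 and at 27.0, 39.8 and 29.7 CPM in knockdown replicates 1, 2 and 3. The controls lay almost on 1 value, and knockdown replicate 2 was the nearest to them. NDRG1 differed by -0.98 on the log2 scale (SE 0.15, adjusted p = 0.00125 in edgeR), and it was -1.15 without control replicate 1 and knockdown replicate 2.

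Among the secreted factors, VEGFA (ENSG00000112715, chromosome 6, 43770184 to 43786487, plus strand), the growth factor that drives formation of blood vessels, had the smallest change of the tested genes. It stood at 75.1, 76.6 and 78.1 CPM in control replicates 1, 2 and 3 and at 106, 119 and 107 CPM in knockdown replicates 1, 2 and 3. The groups were clear of each other, with a log2 fold change of 0.53 (SE 0.09, adjusted p = 0.00171 in edgeR). VEGFA is also the longest of the 10 in the table, at 14431 bases. With a smooth trend of level against gene length removed from each library, its log2 fold change was 0.28 (SE 0.09, adjusted p = 0.0286).

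ADM (ENSG00000148926, chromosome 11, 10305073 to 10307397, plus strand), which encodes the vasodilator peptide adrenomedullin, stood at 44.0, 46.5 and 48.2 CPM in control replicates 1, 2 and 3. In knockdown replicates 1, 2 and 3 it stood at 80.3, 53.9 and 78.9 CPM. Knockdown replicate 2 lay nearer to the controls than to the other knockdown libraries. In edgeR this was a log2 fold change of 0.62 (SE 0.16, adjusted p = 0.0122), and it was 0.77 (SE 0.07) without knockdown replicate 2.

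ANGPTL4 (ENSG00000167772, chromosome 19, 8363289 to 8374370, plus strand), a secreted inhibitor of lipoprotein lipase, stood at 152, 170 and 168 CPM in control replicates 1, 2 and 3. It stood at 75.3, 52.5 and 75.6 CPM in knockdown replicates 1, 2 and 3, so the highest knockdown library was below all controls, and knockdown replicate 2 was the lowest. ANGPTL4 differed by -1.27 on the log2 scale (SE 0.15, adjusted p = 0.000432 in edgeR). Its promoter window is 1 of the 5 that hold ACGTG, and the other 4 belong to genes that rose. ADM, HIF1A and EGLN3, whose windows hold no ACGTG, were also higher in the knockdown libraries, and NDRG1 had no window to search.

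CA9 (ENSG00000107159, chromosome 9, 35673928 to 35681159, plus strand) encodes carbonic anhydrase IX, a cell surface enzyme used as a marker of hypoxic tumour tissue. It was near the floor in both groups, at 1, 2 and 6 counts in the controls and 13, 14 and 17 in the knockdown libraries, each in the order of replicates 1, 2 and 3. The summed rates differed 4.09-fold (9 against 44 counts, 95% exact interval 1.97 to 9.52, counting error only). In edgeR this was a log2 fold change of 1.99 (SE 0.52, adjusted p = 0.0139), but with control replicate 2 left out it was no longer called (1.80, adjusted p = 0.0578). Of its exon bases in GENCODE 29, 38.5% lie opposite exons of ARHGEF39, and the strand setting of the counting is not given, so its reads cannot be separated with certainty. ARHGEF39 stood at 27.9 ± 3.24 and 28.4 ± 1.48 CPM (SD, n = 3) with no call (log2 fold change 0.03, adjusted p = 0.856 in edgeR). It was named after its value was seen.

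P4HA1 (ENSG00000122884, chromosome 10, 73007217 to 73096974, minus strand) encodes the catalytic subunit of the collagen prolyl 4-hydroxylase, which stabilises the collagen triple helix. It stood at 92.2, 71.8 and 77.4 CPM in control replicates 1, 2 and 3 and at 133, 127 and 125 CPM in knockdown replicates 1, 2 and 3. The knockdown libraries were the closest together of any rising gene on the log scale, and all lay above the controls. P4HA1 differed by 0.67 on the log2 scale (SE 0.11, adjusted p = 0.00178 in edgeR).

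**Figure D2:**
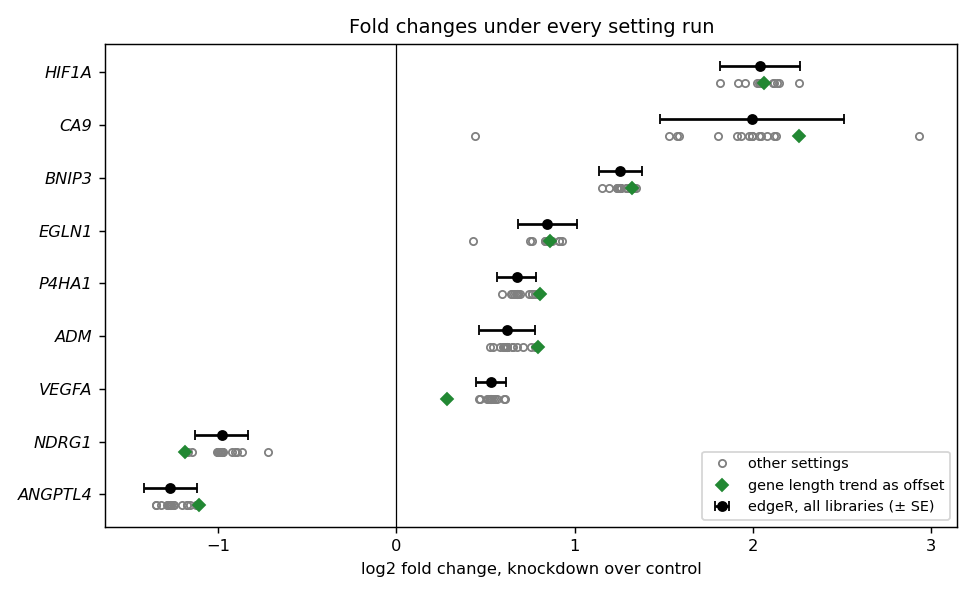
Log2 fold change of knockdown over control for the 9 tested genes. Black points with bars are the edgeR estimates ± SE from all 6 libraries, open circles are the other settings run and green diamonds the fit with a gene length trend removed; no estimate crosses 0, and CA9 has the widest spread, from 0.44 to 2.93.

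Per length, the order of the genes differed between the groups. In the controls ANGPTL4 was the most abundant, at 64.1 ± 3.49 FPKM (SD, n = 3), followed by P4HA1 at 25.3 ± 3.43, ADM at 19.3 ± 0.76, BNIP3 at 19.1 ± 2.19 and HIF1A at 13.2 ± 3.38 FPKM. The ranges of ADM, BNIP3 and HIF1A each overlapped the next in that order, and those of VEGFA (5.16 ± 0.07) and NDRG1 (5.13 ± 0.10) overlapped each other. In the knockdown libraries HIF1A was the most abundant, at 56.9 ± 11.0 FPKM, with BNIP3 at 48.5 ± 6.65 and P4HA1 at 42.7 ± 2.67 FPKM, and these ranges overlapped in turn. ADM (31.6 ± 7.75) and ANGPTL4 (28.4 ± 6.59) came next with overlapping ranges. EGLN1, CA9 and EGLN3 held the last 3 places in both groups, at 0.614, 0.116 and 0.0111 FPKM in the controls and 1.17, 0.510 and 0.0952 FPKM in the knockdown libraries.

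**Figure D3:**
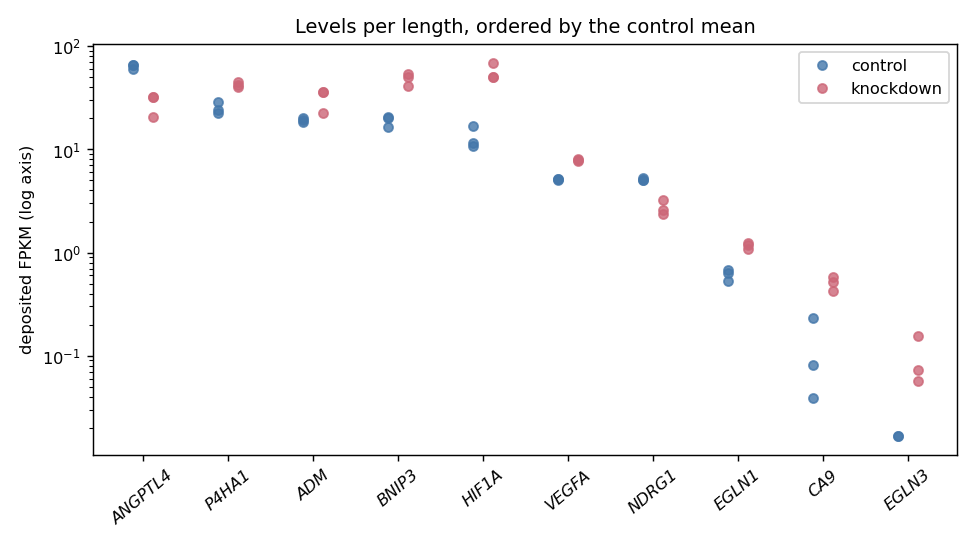
Deposited FPKM of each gene in each library on a log axis, ordered by the control mean; each point is 1 library and the single value of 0 (EGLN3 in control replicate 2) cannot be drawn. ANGPTL4 leads in the controls at 64.1 FPKM and HIF1A in the knockdown libraries at 56.9 FPKM.

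Among libraries of 1 group some of the genes deviated in the same direction and others in opposite ones. BNIP3, ADM and ANGPTL4 lay on the same side of their group mean in all 6 libraries, and HIF1A and EGLN1 were both high in control replicate 1 and knockdown replicate 2. In knockdown replicate 2 HIF1A was at 148% and NDRG1 at 141% of the mean of the other 2 knockdown libraries, whereas ADM was at 67.8%, ANGPTL4 at 69.6% and BNIP3 at 84.8% of it. P4HA1 was at 98.2%. In control replicate 1 HIF1A was at 150% and P4HA1 at 124% of the other 2 controls, and BNIP3 at 80.7%. HIF1A was therefore high and BNIP3 low in both libraries that stood apart. The part of these libraries' other differences, such as the mitochondrial share of 10.4% in knockdown replicate 2, in these values was not tested. Left out together, they changed no call among the 9 genes (7 higher, 2 lower), while the share of all tested genes called was then 73.6%.

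**Figure D4:**
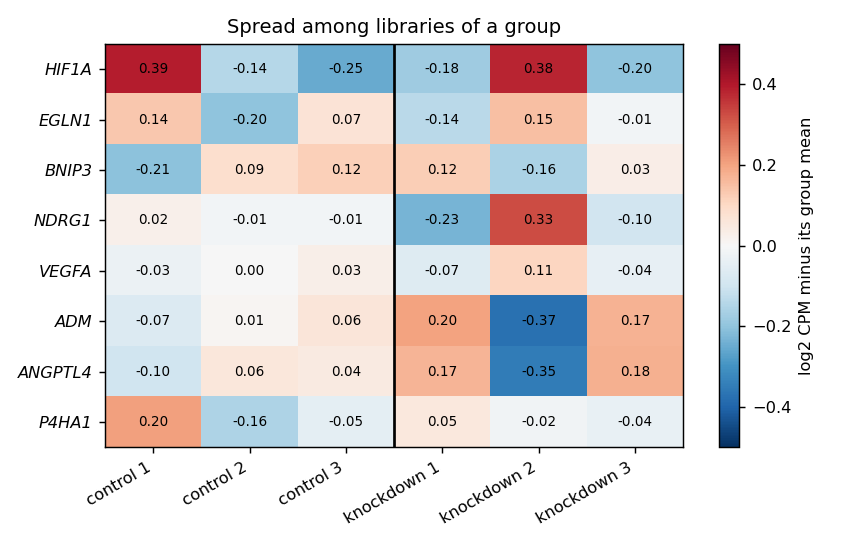
Log2 CPM of each gene minus the mean of its group, by library, for 8 genes (CA9 and EGLN3, whose counts were low, are left out). HIF1A is at 0.39 in control replicate 1 and 0.38 in knockdown replicate 2, and ADM and ANGPTL4 are at -0.37 and -0.35 in knockdown replicate 2.

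Of 17 genes of the oxygen sensing machinery 16 were tested, 1 rose, 2 fell and 13 had no call (18.8% called, against 51.8% of all tested genes), with a median log2 fold change of -0.06. EPAS1, the HIF-2 alpha subunit, was at 74.5 ± 2.34 CPM in the controls and 37.7 ± 4.36 CPM in the knockdown libraries (SD, n = 3), a difference of -0.98 on the log2 scale (SE 0.11, adjusted p = 0.00031 in edgeR), the opposite direction to HIF1A. ARNT2, an alternative partner of the alpha subunits, fell from 11, 16 and 10 counts to 3, 0 and 3. It passed the filter on low counts only through the controls. CUL2, the scaffold of the VHL ubiquitin ligase, rose by a log2 fold change of 0.63 (SE 0.21, adjusted p = 0.0357 in edgeR). Its call was lost with each single library left out except control replicate 1 (adjusted p from 0.0638 to 0.121) and with the gene length trend removed (0.0588), where 0 genes of the list rose and 4 fell in edgeR (26.4% and 26.7% of all tested genes, 53.1% in all). Without both libraries that stood apart, 3 rose and 7 fell, where 36.9% of all tested genes rose and 36.7% fell. HIF3A had no count in any library.

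Of 72 other hypoxia-induced genes on 4 lists, 65 were tested, 23 rose and 19 fell (64.6% called, against 51.8% of all tested genes), and their median log2 fold change was 0.08. The difference between the lists was not tested. On the list of mitochondrial and stress genes 8 of 12 tested genes rose and 0 fell in edgeR, with a median of 0.88. DESeq2 and limma-voom also gave 8 and 0 (they called 27.4% and 26.9% of all tested genes higher, 25.9% and 25.4% lower, and 53.3% and 52.3% in all), and 0 were lower at an unadjusted p below 0.05 in any of the 3 tools. NDUFA4L2, named after its values were seen, was among the 8 that rose in edgeR. It held 3, 5 and 9 counts in the controls and 25, 22 and 14 in the knockdown libraries, in replicate order. It passed the filter on low counts only through the knockdown libraries. In edgeR 10 rose and 1 fell without both libraries that stood apart, where 36.9% of all tested genes rose and 36.7% fell. The one that fell was HIGD1A (-0.32), also named after its values were seen, and other genes on its strand share 34.1% of its exon bases. TXNIP, which inhibits thioredoxin and glucose uptake, rose from 3.20 ± 0.09 to 22.0 ± 2.18 CPM, and PLIN2, a lipid droplet coat protein, rose from 45.0 ± 3.01 to 164 ± 15.3 CPM (SD, n = 3). MXI1, a MYC antagonist, rose by 1.18 on the log2 scale. HILPDA, an inhibitor of lipolysis at lipid droplets, rose by 1.74, and other genes on its strand share 13.2% of its exon bases.

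Glucose metabolism genes moved both ways, with 5 of 24 higher, 9 lower and a median of -0.13 (58.3% called, against 51.8% of all tested genes). Without both libraries that stood apart 7 were higher and 12 lower, where 36.9% of all tested genes rose and 36.7% fell. LDHA, which turns pyruvate into lactate, rose from 1737 ± 45.3 to 2724 ± 169 CPM (SD, n = 3). The pyruvate dehydrogenase kinases PDK1 and PDK3, which inhibit the pyruvate dehydrogenase complex, rose by 0.84 and 1.18 on the log2 scale. PFKP, the platelet form of phosphofructokinase, fell from 662 ± 12.4 to 326 ± 22.6 CPM, and its log2 fold change was -1.02 (SE 0.09). ALDOA, named after its values were seen, had 21 to 41 counts in every library, and AC093512.2, on the same strand, shares 42.3% of its exon bases, which leaves its level uncertain.

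Of 15 tested matrix and secreted genes 3 rose and 6 fell (60% called, against 51.8% of all tested genes), with a median of 0.08. PLOD2, a lysyl hydroxylase that sets collagen cross-links, rose from 463 ± 93.6 to 931 ± 63.6 CPM, while its paralog PLOD1 fell from 325 ± 5.50 to 204 ± 8.64 CPM (SD, n = 3). TGFA, a ligand of the EGF receptor, changed by -1.49 on the log2 scale. Without both libraries that stood apart, 6 rose and 6 fell and the median was -0.06. In that fit 36.9% of all tested genes rose and 36.7% fell.

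Among transcription and chromatin genes 7 of 14 tested rose and 4 fell (78.6% called, against 51.8% of all tested genes), with a median of 0.16. With the gene length trend removed 5 rose and 3 fell (26.4% and 26.7% of all tested genes did), and the median was 0.01. BHLHE41, a transcriptional repressor, rose from 22, 26 and 28 counts in control replicates 1, 2 and 3 to 653, 753 and 568 in knockdown replicates 1, 2 and 3, a log2 fold change of 4.46 (SE 0.23). INSIG2, which retains the sterol sensor complex in the endoplasmic reticulum, rose by 1.69 and MAFF, a small MAF factor, by 1.02. ZNF395 fell from 17.4 ± 2.30 to 8.72 ± 0.34 CPM (SD, n = 3), with 34.9% of its exon bases lying in FBXO16 on the same strand.

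**Figure D5:**
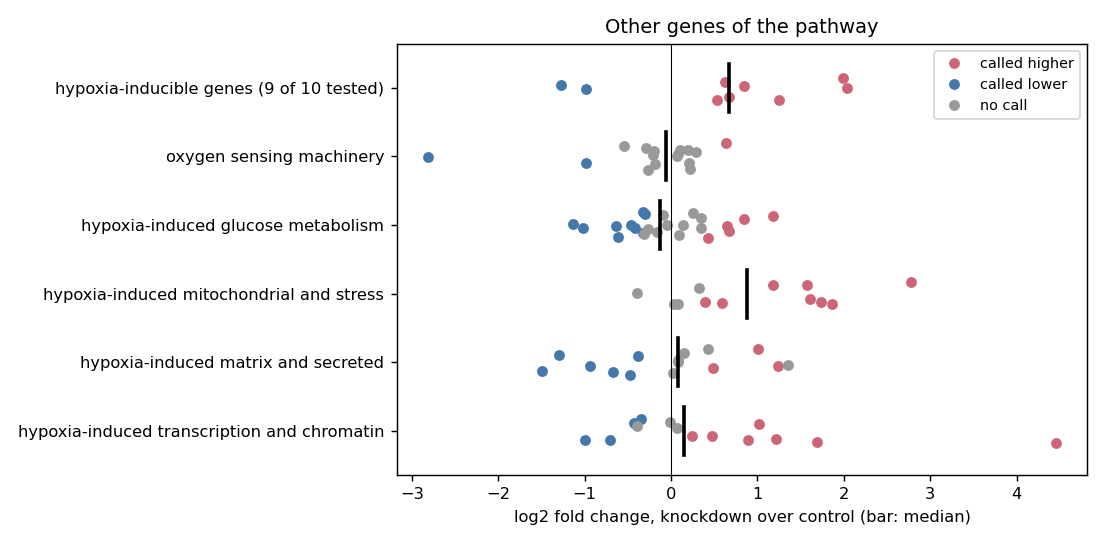
Log2 fold change of each tested gene on 6 lists, 1 point per gene, coloured by its call at an adjusted p below 0.05; the black bar is the median of the tested genes. The mitochondrial and stress list has its median at 0.88 with 0 genes called lower in edgeR, whereas the oxygen sensing list has its median at -0.06 and 13 genes with no call.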

How the data were processed

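TRIzol was used to extract total RNA and an NEBNext Ultra II kit to make libraries, per the labels' protocols. Not given in the sources used here are the aligner, the counter, the build, the annotation and the strand setting. Per the file headers, the deposited table holds read counts for each gene and FPKM values which the same table's counts, column totals and gene lengths give back within 1%. Of the 10 genes, 9 have a start or end at the GENCODE 29 (GRCh38) position.

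Groups follow the sample titles, 3 libraries each. The test was made on the counts with edgeR 4.0.16 under R 4.3.3 (filterByExpr with a minimum count of 10, TMM, quasi-likelihood test, no covariate). This left 12292 genes, and a Benjamini-Hochberg adjusted p below 0.05 is a call. Standard errors come from the fold change and its F statistic. The test was tried on simulated counts first. Lists are described by counts and medians, with no set test.

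The genes, lists and alternatives were chosen with earlier results of these data known. Genes named by rule are the 10, SHMT2, and up to 4 called genes of each list by adjusted p (the 2 of highest mean where fewer than 2 were called), plus the 3 genes most like HIF1A. Alternatives were other scalings, filters, tests (DESeq2 1.42.0, limma 3.58.1), the replicate number as a block, a gene length trend and left-out libraries. The fit without control replicate 1 and knockdown replicate 2 was chosen after seeing the data.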

Additional observations from a re-analysis of the deposited data

How the results depend on the processing

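Over 19 alternatives the 9 tested genes gave 170 values, of which 167 kept both direction and side of the threshold and 0 reversed. With an adjusted p below 0.01 as the threshold, CA9 (1.99) and ADM (0.62) were no longer called, and 2143 genes of the whole table were higher and 2023 lower. CA9 also lost its call without control replicate 2 (1.80), and ranged from 1.57 to 2.93 over single libraries left out (adjusted p from 0.00815 to 0.0578). Its highest value was without control replicate 3, which held 6 of its 9 control counts. On log2(FPKM + 1), where the pseudocount of 1 is above or near their FPKM, it was 0.44 and EGLN1 was 0.43. It could not be tested with a filter of at least 1 CPM in at least 3 libraries. VEGFA moved from 0.53 to 0.28 with the gene length trend removed. The other 29 tested genes named by rule were the same in 543 of 550 values, and all 7 exceptions were CUL2. Most of them were picked because they were called in these data, so a kept call says little about the lists. Genes named outside the rule are not in that count. Among those, BNIP3L and KRT18 became called higher and HIGD1A lower without both libraries that stood apart. The labels state no pairing of libraries by replicate number. Same-numbered deviations from the group means correlated at -0.305, -0.282 and 0.303. The highest correlation, 0.446, was between control replicate 1 and knockdown replicate 2, the libraries that stood apart. Because 1 library stands apart in each group, these values cannot show whether cultures were paired. With the replicate number as a block, HIF1A was still called (log2 fold change 2.04, adjusted p = 0.00192 in edgeR). Depth limits CA9 and EGLN3, which held 53 and 42 counts over all libraries.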

Other observations

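Receptors and paralogs of the 10 genes also moved. Of 17 on that list 12 were tested, 8 rose and 2 fell (against 26.7% and 25.1% of all tested genes). KDR, the main signalling receptor of VEGFA, rose from 4 counts in each control library to 114, 100 and 132 in knockdown replicates 1, 2 and 3 (fitted log2 fold change 4.55). It passed the filter on low counts only through the knockdown libraries, and the size of that fold rests on few control counts. ADM2, a peptide related to adrenomedullin, rose from 1.99 ± 0.16 to 5.68 ± 0.59 CPM (SD, n = 3). Of the receptor side of ADM, named after its values were seen, CALCRL fell from 25, 15 and 23 counts in control replicates 1, 2 and 3 to 9, 8 and 7 in knockdown replicates 1, 2 and 3 (fitted log2 fold change -1.63), and it passed that filter only through the controls. RAMP1, RAMP2 and RAMP3 had at most 2 counts in any library. NDRG4 rose from 3.18 ± 0.67 to 12.7 ± 0.45 CPM, the opposite direction to its paralog NDRG1. P4HB, the beta subunit that pairs with P4HA1 in the collagen hydroxylase, fell from 651 ± 31.3 to 431 ± 25.9 CPM (log2 fold change -0.59, SE 0.09, adjusted p = 0.00114 in edgeR), while P4HA1 rose.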
